A study of Mus musculus with 2 samples.

Results

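Cytotoxic T cells that carried transcripts of Tnfrsf9, the gene for the costimulatory receptor 4-1BB, were examined among single T cells from mouse ileum. A barcode was a member when it held at least 2 Tnfrsf9 UMIs (unique molecular identifiers, each counting 1 captured transcript), no Cd4 UMI and fewer than 2 Ifng UMIs. Barcodes had first to pass a minimum of 500 UMIs and 300 genes and to hold at most 10% mitochondrial UMIs and at most 2 UMIs of the pseudogene Rps19-ps6. The rule found 693 cells, 394 in the Control library and 299 in the SAP library, among 10086 kept barcodes without Cd4 and 10940 barcodes in all. No member barcode occurred in both libraries, although 6 barcodes in all did.

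The series held 1 library labelled Control and 1 labelled SAP, both of T cells from ileum. In the series' design, dendritic cells first given phages of healthy or SAP mice met gut T cells of germ-free mice in culture, and T cells touched by a dendritic cell were tagged by enzymatic fucosyl-biotin transfer. The labels give no strain, age, dose or time, spell out neither SAP nor how many animals were pooled, and do not say whether the sequenced cells were the tagged fraction. With 1 library per label there was no test: ratios below carry exact 95% intervals that cover counting error only, and Control and SAP cannot be told apart from any other difference between the 2 libraries.

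4-1BB is a receptor of the tumour necrosis factor (TNF) receptor superfamily that appears on T cells after antigen receptor stimulation. When its ligand binds, it recruits TRAF adaptors, which activate both arms of the NF-kB pathway and raise survival proteins of the BCL2 family. In the gut epithelium many T cells are poised for killing, with granzymes stored before any new stimulus, and many use the gamma-delta receptor or the CD8 alpha-alpha form of CD8.

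In GENCODE M21 (GRCm38), Tnfrsf9 lies on the plus strand of chromosome 4, from 150914562 to 150946102. RefSeq gives it 2 start sites, and the window of 250 bases before each was searched on both strands. The window before the second holds 2 overlapping matches to an NF-kB motif of 3 G, 5 bases of any kind and 2 C. The stretch is shown because NF-kB is the pathway downstream of the receptor; capitals mark the matches, which span 43 to 33 bases before the start, at chr4:150927946-150927975 on the plus strand of GRCm38.p6.

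Tnfrsf9, second start site: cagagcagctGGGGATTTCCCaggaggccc

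The window of the first start site held 0 matches. A match was common: 45.8% of 32851 RefSeq windows of 250 bases held one. Of the 16 genes highest in members, 13 were in the RefSeq table and 7 of them held a match at any start site, against 48.7% of 27025 genes. The STAT motif TTCNNNGAA was in 0 of those 13 genes and in 8.13% of all genes. These matches describe letters in a window and not bound sites.

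Most members were near the threshold of the rule. Of Control members, 205 (52.0%) held exactly 2 Tnfrsf9 UMIs and 97 (24.6%) held 4 or more, with a highest value of 13. Of SAP members, 151 (50.5%) held exactly 2 and 73 (24.4%) held 4 or more, with a highest value of 12. These shares of the selecting gene lay within 2 percentage points of each other between libraries. Just outside the rule were 625 Control and 433 SAP cells with 1 Tnfrsf9 UMI.

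Members made up 7.34% of kept Cd4-negative barcodes in Control (exact interval 6.66 to 8.07) and 6.34% in SAP (5.66 to 7.07), so the intervals overlapped. Before equalising depth, 20.6% of Control and 17.1% of SAP Cd4-negative barcodes held at least 1 Tnfrsf9 UMI, at medians of 3126 and 3392.5 UMIs per barcode. With every cell thinned to 1000 UMIs (491 Control and 481 SAP cells were shallower and left out), the shares were 8.32% (7.56 to 9.14) and 6.61% (5.88 to 7.40). The Control share was the higher in each form. As a measure of free RNA, barcodes with more than 2 Rps19-ps6 UMIs were used; only 48.4% of the 31 in Control and 61.9% of the 63 in SAP held a Cd3 UMI. At medians of 5592 and 27563 UMIs, 1 of 31 (3.23%) and 2 of 63 (3.17%) of them held a Tnfrsf9 UMI. None held 2, which allows shares of up to 9.68% and 4.76%.

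The label of cytotoxic T cells was checked against markers. At least 1 UMI of Cd3d, Cd3e or Cd3g, the chains of the CD3 complex, was present in 99.7% of Control and 99.3% of SAP members. The median member held 103.5 UMIs of Gzma, which encodes granzyme A, and 17 of Gzmb, which encodes granzyme B, in Control, and 135 and 20 in SAP. The comparators defined next had medians of 73 and 12 in Control and 92 and 15 in SAP. In the barcodes with more than 2 Rps19-ps6 UMIs the medians were 4 and 1 in each library. A single UMI of these genes marks little, since 80.6% and 85.7% of those barcodes held one.

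Each member was set beside up to 3 Tnfrsf9-negative, Cd4-negative cells of its own library within 10% of its total UMIs. This gave 386 members and 1153 comparators in Control, and 298 and 887 in SAP; 8 Control members and 1 SAP member had no comparator. Median UMIs were 3888.5 in members and 3885 in comparators of Control, and 4788.5 and 4769 in SAP. Mitochondrial shares were close, with medians of 0.958% against 1.03% in Control and 1.14% against 1.22% in SAP. Levels are given as counts per 1000000 UMIs (CPM) over the summed cells of a group. Because members were picked from the same cells, every ratio of members over comparators is a description.

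Of 5256 genes abundant enough to compare, 178 (3.39%) were at least 1.5-fold higher in members in both libraries and 103 (1.96%) were at least 1.5-fold lower, together 281 (5.35%). At 2-fold the counts were 41 (0.780%) and 21 (0.400%). In both libraries 4361 genes stayed within 1.5-fold, and the median log2 ratio over all 5256 was 0.02 in Control and 0.00 in SAP. Most genes thus lay close to their level in cells of equal depth. The shares at 1.5-fold over all genes are the background for each count within a list of genes below.

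**Figure D1:**
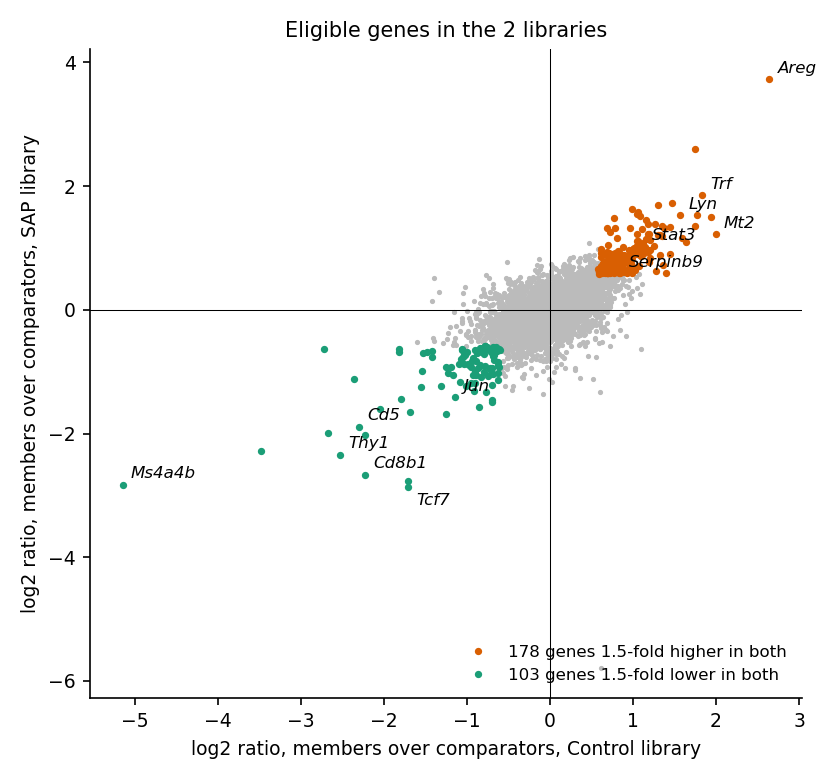
Log2 ratio of members over matched comparators for 5256 genes, in the Control library (x axis) and the SAP library (y axis). Each point is a gene; orange points are the 178 genes at least 1.5-fold higher in both libraries and green points the 103 at least 1.5-fold lower, with Areg at the upper right and Ms4a4b at the lower left.

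The genes named beside the rule as marks of these cells were Lyn, Stat3, Mt1 and Serpinb9. All 4 were higher in members, but they were chosen with earlier results of these data known, so this is a description and no check. Lyn, a kinase of the Src family, was at 206 CPM in Control members and 69.3 in comparators, and at 183 and 63.3 in SAP. The ratios were 2.97 (2.55 to 3.47) and 2.89 (2.44 to 3.43). A Lyn UMI was present in 44.0% of members of each library, against 19.1% and 20.7% of comparators. Lyn is better known from B and myeloid cells than from T cells.

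Stat3, the transcription factor that carries signals of interleukin-6 family cytokines, was at 1044 CPM in Control members and 479 in comparators, and at 986 and 486 in SAP. Its ratios were 2.18 (2.05 to 2.32) and 2.03 (1.90 to 2.17). It was the most widespread of the 4, with a UMI in 86.0% and 89.6% of members and a median of 3 and 4 UMIs per member cell against 1 in comparators of each library. Serpinb9, an inhibitor that protects killer cells from their own granzyme B, was at 296 CPM against 165 in Control and at 267 against 177 in SAP. The ratios of Serpinb9 were 1.80 (1.60 to 2.01) and 1.51 (1.33 to 1.70), the smallest of the 4.

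Mt1 and Mt2 encode metallothioneins, small proteins that bind zinc and copper, and are neighbours on chromosome 8 (Mt2 from 94172664 to 94173568 and Mt1 from 94179082 to 94180327, GRCm38). Mt1 was at 759 CPM in Control members and 278 in comparators, and at 432 and 230 in SAP. Its ratios were 2.74 (2.53 to 2.96) and 1.88 (1.70 to 2.07). Mt1 was uneven between cells: the median member held none, 30.8% of Control and 33.9% of SAP members held any, and the highest single cell held 160 UMIs in Control and 63 in SAP. Mt2 had ratios of 3.99 (3.35 to 4.75) and 2.33 (1.84 to 2.94), and 1 cell held 24.8% of its UMIs in Control members. Without that cell the Control ratio of Mt2 was 3.0. Of the 7 listed metallothionein and zinc genes abundant enough to compare, 3 were higher, beside 3.39% of all genes, and 0 were lower; they were Mt1, Mt2, both chosen with results known, and the zinc importer Slc39a6 (1.51 and 1.53).

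Among receptors of the TNF superfamily, Tnfrsf4, which encodes the costimulatory receptor OX40, was the 1 of 6 eligible genes past 1.5-fold in both libraries, and the list's median log2 ratios were 0.53 and 0.56. Tnfrsf4 stood at 34.2 CPM in Control members and 10.2 in comparators, and at 39.4 and 6.53 in SAP, giving ratios of 3.37 (2.25 to 5.05) and 6.03 (3.81 to 9.74). These ratios rested on few cells: a Tnfrsf4 UMI was in 2.85% of Control members and 2.43% of comparators, and in 4.03% and 2.14% in SAP. A single cell held 42.9% of the members' Tnfrsf4 UMIs in Control and 30% in SAP, and without it the ratios were 1.92 and 4.22. The TNF receptors Tnfrsf1a (1.83 and 1.46) and Tnfrsf1b (1.49 and 1.41) and the GITR gene Tnfrsf18 (1.4 and 1.74) lay higher in both without reaching 1.5-fold in both, whereas the death receptor Fas was at 0.982 and 0.907. Of 3 eligible TNF ligands, Ltb, the membrane part of lymphotoxin, was lower at 0.549 (0.462 to 0.648) and 0.520 (0.422 to 0.635). Over all genes 3.39% were higher and 1.96% lower.

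TRAF adaptors and NF-kB act downstream of the receptor, and their counts were near the share of all genes (3.39% higher and 5.35% apart either way). None of the 8 eligible TRAF and adaptor genes was 1.5-fold apart in both libraries, with median log2 ratios of 0.30 and 0.23. Traf1, itself a product of NF-kB activity, was lower in members at 0.750 (0.639 to 0.877) and 0.751 (0.637 to 0.882), and Traf4 was at 1.58 and 1.34. Of 17 NF-kB genes, only Nfkb2, the precursor of the p52 subunit of the non-canonical arm, was past 1.5-fold. It was at 123 CPM against 62.6 in Control and at 105 against 62.4 in SAP, with ratios of 1.96 (1.63 to 2.35) and 1.68 (1.38 to 2.05). Relb, its usual partner, was at 1.13 and 1.67, and the inhibitor Nfkbia was at 0.856 and 0.908.

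Among 11 genes of the BCL2 family and survival, 2 were higher, beside 3.39% of all genes, and 0 lower. Bcl2a1d, a pro-survival member, had ratios of 1.78 and 1.71, although reads of the near-identical Bcl2a1 copies may be split between them and Bcl2a1b was at 1.36 and 1.45. Bcl2l11, which encodes the pro-death protein BIM, was also higher, at 1.64 (1.42 to 1.90) and 1.86 (1.59 to 2.19). Mcl1 was at 0.946 and 0.922, and the p53 target Pmaip1 at 0.783 and 0.588. The 2 higher genes of this group have opposite known roles in cell survival.

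Of the stored killing machinery, Gzma and Gzmb transcripts were moderately higher in members, while the median log2 ratios of the listed granule genes were 0.03 and 0.08. The listed granule genes summed to 38786 CPM against 30904 in Control and to 39906 against 30307 in SAP. Gzma made up most of each sum. Of 12 granule genes, 1 was at least 1.5-fold higher in both libraries, beside 3.39% of all genes. This was Gzmc, a granzyme of activated killer cells, at 27.5 against 9.12 CPM in Control and 23.6 against 10.6 in SAP (ratios 3.01 and 2.23). Gzma (1.30 and 1.36) and Gzmb (1.20 and 1.36) were above 1 without reaching 1.5-fold, and Prf1, which encodes perforin, was at 1.01 and 1.03. Of 7 serpins and cystatins, Serpinb9 and Serpinb6b were higher, beside 3.39% of all genes. Serpinb6b was at 423 against 225 CPM in Control and 450 against 262 in SAP, with ratios of 1.88 and 1.72.

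**Figure D2:**
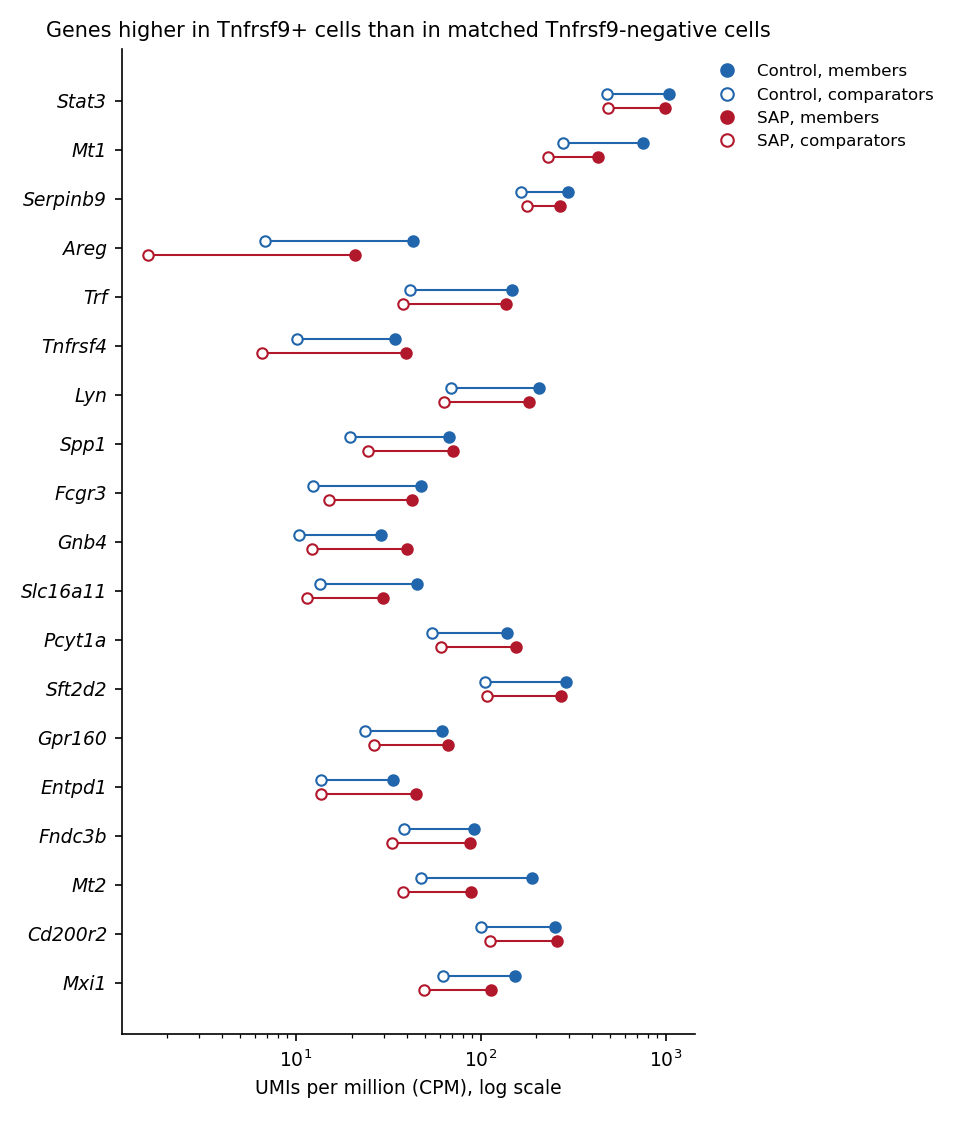
Level in CPM (x axis, log scale) of 3 genes named beside the rule and of the 16 genes highest in members, in Tnfrsf9-positive members (filled) and matched comparators (open) of the Control (blue) and SAP (red) libraries. For all 19 genes plotted the filled point lies to the right of the open one in each library.

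The 16 genes with the highest ratio in the library where it was nearer to 1 were Areg, Trf, Tnfrsf4, Lyn, Spp1, Fcgr3, Gnb4, Slc16a11, Pcyt1a, Sft2d2, Gpr160, Entpd1, Fndc3b, Mt2, Cd200r2 and Mxi1. Several encode secreted proteins. Areg, the growth factor amphiregulin that acts on epithelial cells, was at 42.8 CPM in Control members and 6.84 in comparators, and at 21 and 1.58 in SAP. Its ratios of 6.25 (4.08 to 9.76) and 13.3 (5.78 to 35.8) rested on few cells: 2.85% and 2.01% of members held any, and 1 cell held 45.7% and 56.2% of the UMIs. Without that cell the ratios were 3.39 and 5.83.

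Trf, which encodes the iron carrier transferrin, was spread more evenly. It was at 147 CPM against 41.3 in Control and at 137 against 37.8 in SAP, with ratios of 3.57 (2.95 to 4.33) and 3.61 (2.93 to 4.45), and was found in 29.3% and 31.5% of members. Spp1, which encodes osteopontin, was at 67.2 against 19.7 CPM and at 70.9 against 24.6 CPM. The Spp1 ratios were 3.41 (2.57 to 4.54) and 2.89 (2.19 to 3.8). Of 5 eligible cytokine genes, Areg and Spp1 were higher and 0 were lower, beside 3.39% and 1.96% of all genes.

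Surface receptors formed another part of the list. Fcgr3, a low-affinity receptor for IgG, was at 47.7 against 12.4 CPM in Control and 42.7 against 15.1 in SAP (ratios 3.83 and 2.83). The ITAM adaptor genes Fcer1g (1.53 and 1.42) and Tyrobp (1.58 and 1.46) were past 1.5-fold in Control only, and that difference between libraries was not tested. Cd200r2, of the CD200 receptor family, was in 53.1% and 61.4% of members against 24.7% and 30.9% of comparators, with ratios of 2.50 and 2.31. The killer cell lectin-like receptor genes Klra5 (2.12 and 2.87) and Klra7 (1.96 and 2.52) were the 2 higher of 8 NK-type receptor genes. Over all genes 3.39% were higher. Reads of Klra5 and Klra7 may be shared among close copies. Entpd1, which encodes CD39, an enzyme that breaks down extracellular ATP, was at 33.6 against 13.7 CPM and at 44.6 against 13.7 (ratios 2.46 and 3.25). Cd101, an inhibitory receptor, was at 1.72 and 2.49, whereas Cd160 was lower at 0.535 and 0.504. The list of 10 eligible inhibitory receptor genes includes the enzyme gene Entpd1. Of these 10, 2 were thus higher and 1 was lower, beside 3.39% and 1.96% of all genes. Lag3 was at 1.67 and 1.41.

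Of the remaining highest genes, Pcyt1a, the regulated enzyme of phosphatidylcholine synthesis, had ratios of 2.55 (2.13 to 3.06) and 2.56 (2.14 to 3.06). Sft2d2 was in 54.4% and 60.1% of members against 26.3% and 30.6% of comparators (ratios 2.73 and 2.54). Mxi1, a partner of MAX that opposes MYC, was at 2.46 and 2.30. Ratios of Gnb4 (a G protein beta subunit), Slc16a11 (of the monocarboxylate transporter family), Gpr160 (an orphan G protein-coupled receptor) and Fndc3b ranged from 2.40 to 3.35 over both libraries.

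Among 13 cytokine receptors, Il2rb, the beta chain shared by the interleukin-2 and interleukin-15 receptors, was higher at 817 against 444 CPM in Control and 744 against 447 in SAP. Its ratios were 1.84 (1.72 to 1.97) and 1.66 (1.54 to 1.79), and it was present in 89.9% and 88.9% of members. Il7r, the interleukin-7 receptor of naive and memory cells, was lower, at 12.2 against 57.2 CPM and at 15.8 against 64.2 (ratios 0.214 and 0.245). Of 17 STAT and SOCS genes, Stat3 was higher, and Socs1 (0.508 and 0.537) and Socs3 (0.556 and 0.335), feedback inhibitors of JAK-STAT signals, were lower. Cells high in Tnfrsf9 thus held more Stat3 and fewer Socs3 transcripts in both libraries. Over all genes 3.39% were higher and 1.96% lower.

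**Figure D3:**
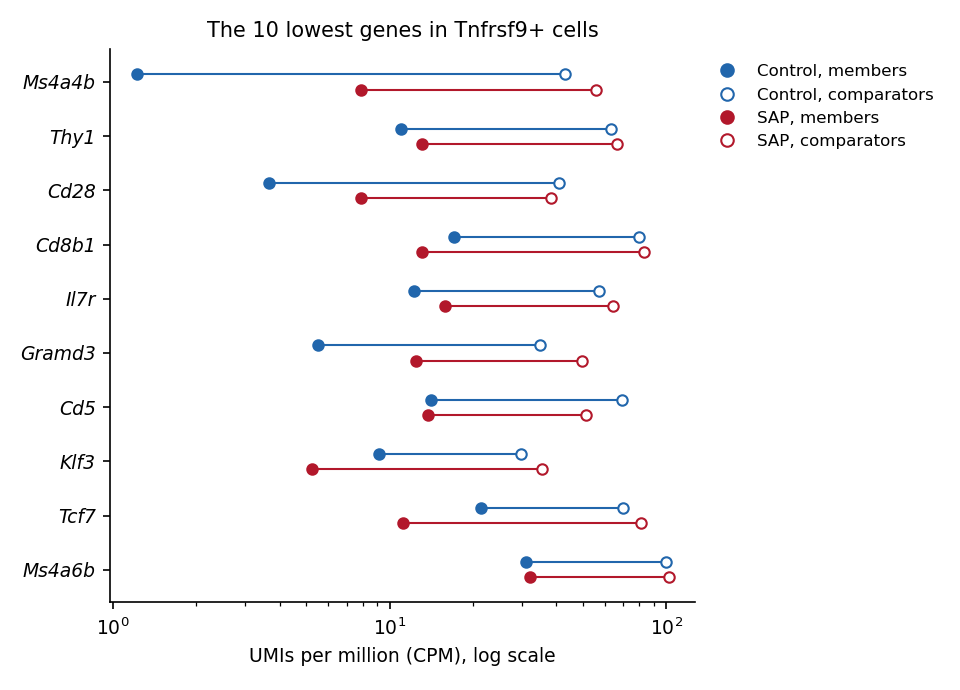
Level in CPM (x axis, log scale) of the 10 genes lowest in members, in Tnfrsf9-positive members (filled) and matched comparators (open) of the Control (blue) and SAP (red) libraries. Every filled point lies to the left of its open point, and Ms4a4b in Control rests on 2 UMIs in members.

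The 10 lowest genes were Ms4a4b, Thy1, Cd28, Cd8b1, Il7r, Gramd3, Cd5, Klf3, Tcf7 and Ms4a6b, and several of them mark conventional T cells. Ms4a4b, a membrane protein of T cells, was the lowest, at 1.22 against 43.1 CPM in Control (ratio 0.0283, 0.00341 to 0.104) and 7.88 against 55.9 in SAP (0.141, 0.0719 to 0.251). Thy1, a surface glycoprotein of mouse T cells, was at 11 CPM in Control members and 63.2 in comparators, and at 13.1 and 66.5 in SAP. The ratios of Thy1 were 0.174 (0.102 to 0.280) and 0.198 (0.119 to 0.311). Cd5, which dampens antigen receptor signals, was at 14.1 against 69.3 CPM and at 13.8 against 51.1 (ratios 0.203 and 0.270). Cd28, the classical costimulatory receptor, had 3.67 against 40.8 CPM and 7.88 against 38.3 (ratios 0.0897 and 0.206). Of 9 genes of the CD28 family and adhesion costimulation 4 were lower, beside 1.96% of all genes, and 0 higher, with median log2 ratios of -0.54 and -1.16; the other two were Cd6 (0.243 and 0.328) and Cd226 (0.474 and 0.447).

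Tcf7, the transcription factor TCF1 of naive and memory T cells, was at 21.4 against 69.7 CPM in Control and 11.2 against 81.1 in SAP. Its ratios were 0.307 (0.210 to 0.435) and 0.138 (0.0793 to 0.223). Bcl11b, a factor that upholds T cell identity, was lower at 0.419 and 0.311. In the same list of 21 lineage factors, 2 were lower and 2 higher, beside 1.96% and 3.39% of all genes. The higher ones were Ikzf2 and Zeb1. Ikzf2, which encodes Helios, was at 2001 against 1127 CPM and at 1953 against 1103, with ratios of 1.78 (1.70 to 1.85) and 1.77 (1.69 to 1.85), and was detected in 95.3% and 97.0% of members. Zeb1, a repressor in T cells, was at 1.87 and 1.79.

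Cd8b1, the CD8 beta chain, was at 17.1 against 80 CPM in Control and 13.1 against 83.4 in SAP (ratios 0.214 and 0.158), while Cd8a, the alpha chain, was at 1.02 and 1.13. The gamma-delta constant gene Trdc was at 0.954 and 0.831. Cells were therefore placed in classes by UMIs, which are ranges and not cell types. The CD8 alpha-beta range (Cd8b1 at least 1, no Trdc) held 3.11% of Control members (1.62 to 5.37) and 13.4% of comparators, and 2.35% of SAP members (0.95 to 4.78) and 14.5% of comparators. The gamma-delta range (Trdc at least 2, no Cd8b1) held 40.4% of members and 40.6% of comparators in Control, and 41.6% and 45.2% in SAP. The rest, in neither range, was the largest class of members. It held 56.5% of members (51.4 to 61.5) and 46.0% of comparators in Control, and 56.0% (50.2 to 61.8) and 40.2% in SAP. Read the other way, at 3000 UMIs or more members were 3.27% and 1.99% of the CD8 alpha-beta range, 10.6% and 8.96% of the gamma-delta range and 13.0% and 12.4% of the rest.

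**Figure D4:**
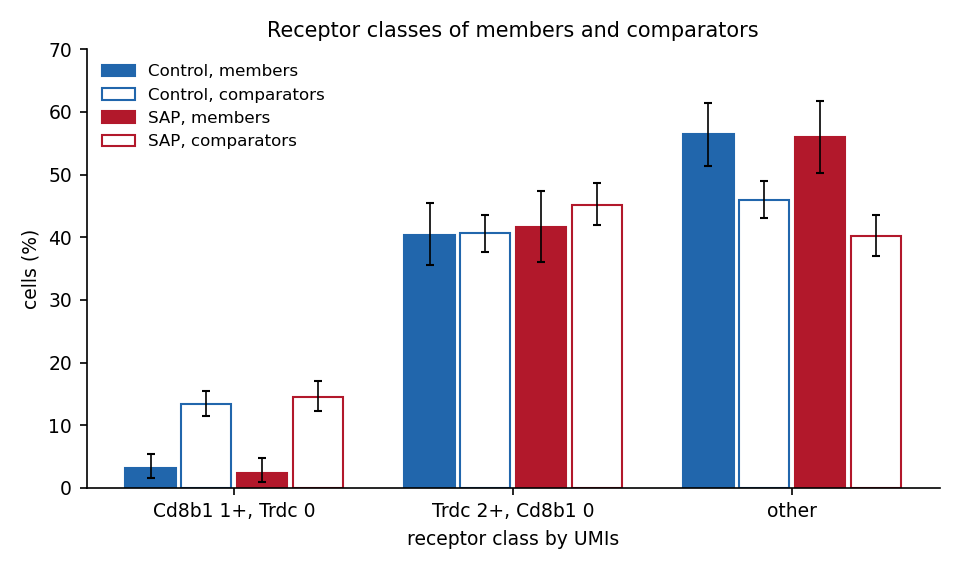
Share of cells (y axis, %) in 3 receptor classes set by UMIs (x axis), for members (filled bars) and matched comparators (open bars) of the Control (blue) and SAP (red) libraries, with exact 95% intervals for counting error. The CD8 alpha-beta class (Cd8b1 1+, Trdc 0) holds 3.11% and 2.35% of members and 13.4% and 14.5% of comparators.

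Since the highest and lowest genes were chosen in these same cells, their values within a class are a description. Within the gamma-delta range Lyn was at 2.19 (1.74 to 2.75) and 2.46 (1.94 to 3.12), Stat3 at 2.10 (1.91 to 2.31) and 1.78 (1.61 to 1.95), and Trf at 2.97 (2.21 to 4.01) and 3.12 (2.24 to 4.35). Thy1 was at 0.287 (0.111 to 0.623) and 0.275 (0.115 to 0.565) there, and Mt1 at 2.88 (2.57 to 3.22) and 1.47 (1.25 to 1.73). Areg (3 and 4 member UMIs), Cd28 (0 and 1) and Cd5 (0 and 1) were too sparse in this range to compare. The CD8 alpha-beta range held 12 Control and 7 SAP members. In it Stat3 was at 2.43 (1.71 to 3.37) and 2.15 (1.5 to 3.02), whereas Mt1 was at 1.23 (0.704 to 2.01) and 0.739 (0.375 to 1.32) and Cd5 at 1.23 (0.601 to 2.27) and 0.829 (0.325 to 1.77). Trf and Areg had 0 member UMIs in that range in both libraries. The rest, in neither range, held 67 of 70 Areg UMIs of Control members and 28 of 32 of SAP members. For Tnfrsf4 it held 52 of 56 and 53 of 60. Lyn was at 3.18 (2.56 to 3.97) and 2.88 (2.24 to 3.72) in the rest, and Thy1 at 0.169 (0.0757 to 0.332) and 0.173 (0.0727 to 0.354). When comparators were matched on class as well as on UMIs, 156 genes were higher and 108 lower, of which 139 and 82 were shared with the counts above.

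Of 15 genes that respond to or carry antigen receptor signals, 0 were 1.5-fold higher in both libraries and Dusp1, a phosphatase that curbs MAP kinases, was lower at 0.576 and 0.609. The orphan receptor genes Nr4a1 (0.731 and 0.764) and Nr4a3 (0.883 and 0.911) were below 1. Of 20 AP-1 and immediate early genes 6 were lower, beside 1.96% of all genes, and 0 higher, with median log2 ratios of -0.34 and -0.38. Jun, a subunit of AP-1, was at 379 against 834 CPM in Control and 307 against 817 in SAP (ratios 0.454 and 0.376), and Fosb, another subunit, had ratios of 0.485 and 0.587. Zfp36, Ier5, Klf2 and Ppp1r15a were the other four. These genes are also known to respond to handling of tissue, as are heat shock genes, of which 3 of 17 were lower, beside 1.96% of all genes, and 0 higher. Hspa1a was at 286 against 613 CPM and at 416 against 768 (ratios 0.467 and 0.542), Hspa1b at 0.542 and 0.483 and Dnajb1 at 0.578 and 0.637; Hspa1a and Hspa1b are near-identical copies. Whether handling bears on these values was not tested. With Ifng held under 2 in comparators as well, the mean log2 ratio of the 2 libraries for Jun was -1.18, beside -1.27.

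Genes of residence in the epithelium that were 1.5-fold apart went both ways, while the list's median log2 ratios were -0.42 and -0.34. Of 17, 2 were higher: Cxcr6, a chemokine receptor of resident T cells (1.94 and 1.95), and Gpr55, a lipid receptor (1.84 and 1.79). Cd160, Klf2 and the integrin gene Itgal (0.373 and 0.588) were lower, and Itgae, which encodes the CD103 that binds epithelial cadherin, was at 0.933 and 0.971. Among 18 interferon response genes Ifi203 and Gbp7 were lower and 0 higher. Both lists stand beside 3.39% of all genes higher and 1.96% lower.

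In the lists of growth and metabolism the shares apart were near the 5.35% of all genes. None of the 11 eligible glycolysis genes, 8 amino acid and polyamine genes or 12 MHC class I genes was 1.5-fold apart in both libraries; Ldha was at 1.17 and 1.20 and H2-K1 at 1.28 and 1.22. Of 14 cholesterol synthesis genes, the kinase gene Mvk was higher (2.17 and 1.90). Of 12 division genes Cdk4 was lower (0.622 and 0.609). Among 21 cytoskeletal genes Lgals3, which encodes galectin-3, was higher at 403 against 193 CPM and 408 against 188 (ratios 2.09 and 2.17), and Vim was lower at 0.576 and 0.643.

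Markers of other cells were summed beside these results, and their part in them was not tested. The 13 myeloid and dendritic markers summed to 203 CPM in Control members and 210 in comparators, and to 219 and 206 in SAP, with Lyz2, Flt3, Cd209a, C1qa and Clec9a at 0 UMIs in members. The 8 B cell markers summed to 57.4 and 82.9 in Control and 69.6 and 96.2 in SAP, with Ms4a1 at 0 in members. The 6 plasma cell markers summed to 66.0 and 1298 in Control and 31.5 and 27.9 in SAP, with Mzb1 at 0 in members, although Igha was higher in members at 1.56 and 1.68. The 11 epithelial markers summed to 101 and 94.3 in Control and 129 and 74.8 in SAP; Epcam was at 1.39 and 1.78, and Krt19, Krt20, Fabp6, Lypd8 and Reg3g were at 0 in members. The 10 innate lymphoid markers, which include Areg and Il7r, summed to 387 and 359 and to 328 and 347, with Il22 at 0 in members. The 6 mast cell and basophil markers summed to 1.22 and 1.24 in Control and to 0 and 1.35 in SAP.

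Values around the threshold of the rule are given by Tnfrsf9 UMIs, on CPM weighted to the depth of the members; the choice of genes fixes the order of negative cells and members. From cells with no Tnfrsf9 UMI to those with 1, with 2 to 3 and with 4 or more, Lyn was at 70.7, 138, 166 and 284 CPM in Control and at 66.4, 112, 174 and 217 in SAP. Stat3 was at 488, 806, 872 and 1353 in Control and at 483, 680, 914 and 1213 in SAP. For these genes, cells with 1 UMI, just outside the rule, lay between negative cells and members. Tnfrsf4 in Control did not follow this order, at 11.6 CPM with no Tnfrsf9 UMI and 9.03 with 1. Thy1 was at 57.8, 24.2, 22.6 and 9.77 in Control and at 67.3, 17.4, 15.6 and 4.73 in SAP. Serpinb9 differed mostly at the first step, from 173 to 252 in Control and from 182 to 257 in SAP, and reached 284 and 295 at the last. The last step held 97 Control and 73 SAP cells and did not continue the order for every gene: from 2 to 3 UMIs to 4 or more, Tnfrsf4 was at 46.1 and 17.3 in SAP, Mt2 at 90.4 and 80.1 in SAP and Il7r at 12.5 and 13.2 in Control. Of the 10 lowest genes 6 were lower at the last step than at the one before in each library, and of the 16 highest 15 were higher in Control and 12 in SAP.

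**Figure D5:**
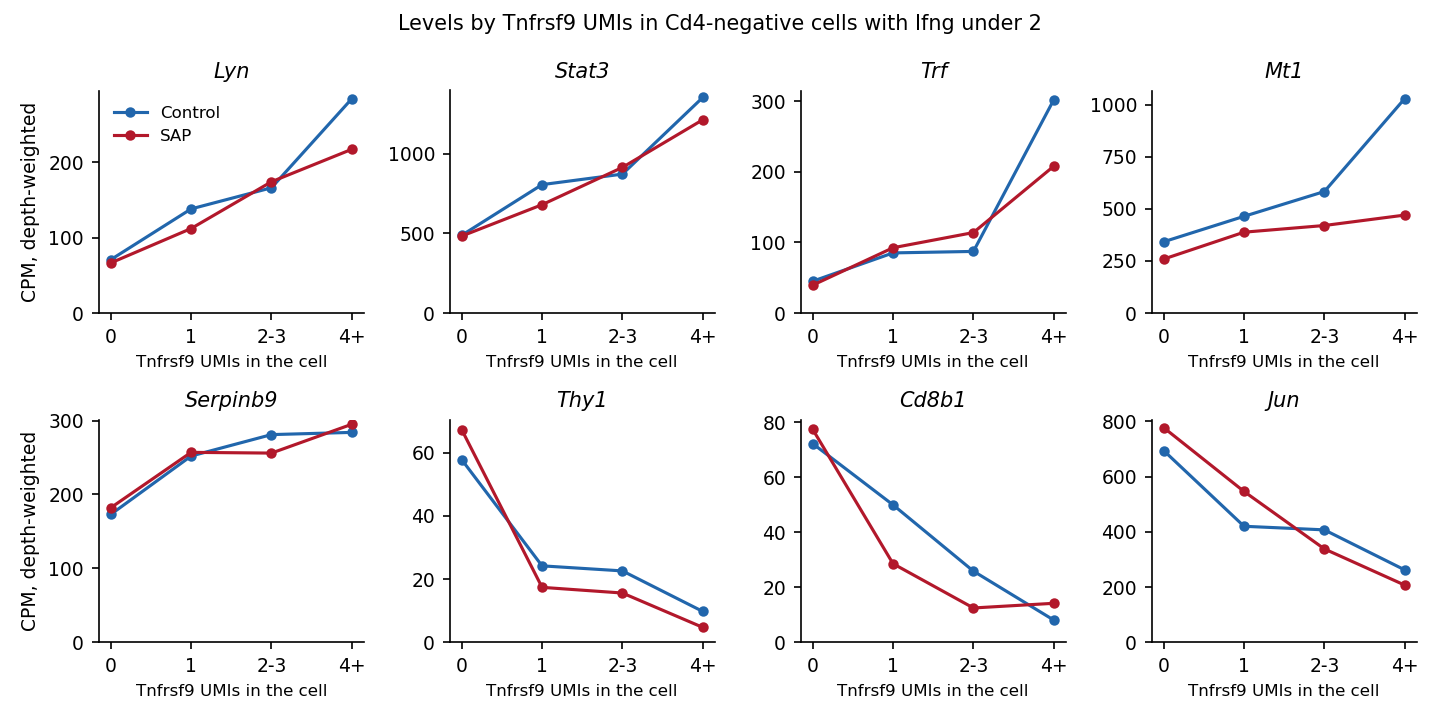
Level of 8 genes in CPM weighted to the members' depth (y axes, each from 0) by the number of Tnfrsf9 UMIs in the cell (x axis), in Cd4-negative cells with fewer than 2 Ifng UMIs, for Control (blue) and SAP (red). Lyn, Stat3, Trf and Mt1 are higher at each step in both libraries, while Thy1 is lower at each step.

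Cells with at least 2 Tnfrsf9 UMIs that also held 2 or more Ifng UMIs were left out of the members by the rule, and there were 37 in Control and 25 in SAP. On the same scale, Stat3 was at 513 CPM in those of Control and 795 in those of SAP, Mt1 at 134 and 23, and Thy1 at 55.7 and 28.2. Areg had 0 UMIs in them. Of the 25 SAP cells, 23 were within the range of depth used. Jun was at 522 and 519 CPM there, against 407 and 338 in members with 2 to 3 Tnfrsf9 UMIs.

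Within members, the 2 libraries were then set against each other over 5446 genes. All 394 Control and 299 SAP members were used, including those without a comparator. Levels in members therefore differ from those above, where only matched members were summed. H2ac24, for instance, had 224 UMIs in all Control members and 131 in the matched ones. Ratios in comparators are those of the matched comparators. In SAP 251 genes (4.61%) were at least 1.5-fold higher than in Control and 131 (2.41%) were at least 1.5-fold lower, with a median log2 ratio of 0.04. This split depended on scaling: it was 202 and 176 with TMM factors and 169 and 214 with median-of-ratios factors. Intervals for counting error excluded 1 for 177 and 78 of the genes.

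For 12 of the 16 highest genes the interval of SAP over Control included 1, and for Areg, Slc16a11, Mt2 and Mxi1 it did not. The ratio was 0.942 (0.803 to 1.10) for Lyn, 0.993 (0.926 to 1.06) for Stat3, 0.941 (0.823 to 1.07) for Serpinb9 and 0.999 (0.826 to 1.21) for Trf. Mt1 was at 721 CPM in Control members and 428 in SAP members, for a SAP over Control ratio of 0.594 (0.539 to 0.653). In comparators the Mt1 ratio was 0.828 (0.763 to 0.899). Mt2 was at 179 and 87.8 CPM, a ratio of 0.491 (0.399 to 0.603), beside 0.802 (0.653 to 0.982) in comparators. A single cell held 24.4% of Mt2 UMIs in Control members. Areg, at 51.1 and 20.8 CPM, had a ratio of 0.408 (0.263 to 0.616), with 35.6% and 56.2% of its UMIs in 1 cell. The ratio was 0.661 (0.448 to 0.967) for Slc16a11 and 0.769 (0.630 to 0.936) for Mxi1.

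Among genes whose interval excluded 1, the 5 highest in SAP members were Tradd, Psmf1, Zhx1, Kdm1b and Slc35a2. Genes entered this contrast with at least 20 CPM in members of either library and at least 30 UMIs over both. All 5 were under 20 CPM in Control members, so they entered only through SAP, the library where they were high. Tradd, an adaptor of the TNF receptor, was at 6.24 CPM in Control members and 20.2 in SAP members, with a ratio of 3.23 (1.58 to 7.12) on 11 and 31 UMIs, beside 0.902 (0.659 to 1.23) in comparators. The other four had ratios from 2.35 to 2.73. The 5 lowest were Il17a, Pclaf, H2ac8, H2ac24 and Ube2c, which entered only through Control. Pclaf and Ube2c are cell cycle genes and H2ac8 and H2ac24 encode histone H2A, and their ratios ran from 0.103 to 0.143. They rested on few Control cells, since 1 cell held 33.0% of Pclaf, 56.0% of H2ac8, 33.9% of H2ac24 and 70% of Ube2c UMIs. Il17a was at 71 UMIs in Control members, all in 1 cell, and at 2 UMIs in SAP members.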

How the data were processed

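For each library the authors deposited raw counts, whole numbers of UMIs per gene and barcode, and the file headers name Cell Ranger 7.1.0; mm10 and Seurat are named in the submitters' processing notes. Filters before deposit and the annotation version were not given in the sources used here. The deposited libraries held 19142384 (Control) and 19144320 (SAP) UMIs over 55357 genes.

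The members and the gene lists were chosen with earlier results of these data known. UMIs were summed over members and comparators (numpy 2.4.6, scipy 1.17.1, pandas 2.3.3, Python 3.11.15) and divided by the total. Genes were eligible with at least 20 CPM in members or comparators and at least 30 UMIs over both, in each library. Between libraries, the limits were 20 CPM in members of either library and 30 UMIs over both. The selecting genes were left out, and ribosomal, mitochondrial and unnamed model genes were not named among the highest and lowest. Intervals of ratios are exact conditional binomial and those of shares Clopper-Pearson, both at 95%. They cover counting error only, and a count of 0 was bounded by 3 counts. No test was run and the scripts were tested on simulated data. Named were the 16 highest and 10 lowest genes by the ratio nearer to 1, the markers of the rule, in each list up to 4 genes 1.5-fold apart in both libraries or else the farthest 1 or 2, and 5 genes each way between libraries. Others were added after their values were seen, to fill out a family, and 1 listed marker gene is not reported here.

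Scrublet (scanpy 1.11.5) marked 0 barcodes at its automatic threshold and so had not worked; no doublets were removed, and removing 254 (4.51%) Control and 197 (3.97%) SAP barcodes by rank was an alternative. Other alternatives changed the limits on barcodes, Tnfrsf9 and Ifng, the matching, the filter on low values and the scaling (TMM from edgeR 4.0.16, median of ratios from DESeq2 1.42.0, R 4.3.3). Promoter sequences are RefSeq's, GRCm38.p6.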

Additional observations from a re-analysis of the deposited data

Results flagged for a closer look

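For 6 genes the Control and SAP libraries placed members on opposite sides of their comparators with both counting intervals away from 1; these differences between libraries were not tested. Il17a, an interleukin of type 17 T cells, was at 1.54 (1.14 to 2.06) in Control and 0.0180 (0.000453 to 0.102) in SAP, 6.42 apart on the log2 scale, and 1 cell held 100% of its UMIs in Control members. Top2a, a topoisomerase of dividing cells, was at 1.52 and 0.400, 1.93 apart, and at 1.02 in Control without the cell that held 32.9% of its UMIs. H2ac24, a histone gene, was at 2.14 and 0.643, 1.74 apart, and at 0.966 in Control without the cell that held 55.0%. Cish, a feedback inhibitor of cytokine signals, was at 0.694 (0.542 to 0.880) in Control and 1.42 (1.11 to 1.81) in SAP, a difference of -1.04. Actg1, a cytoskeletal actin, was at 0.931 and 1.09, a difference of -0.23. Tmsb10, which binds actin monomers, was at 1.08 and 0.949, a difference of 0.19.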

How the results depend on the processing

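Over 43 genes, including the 16 highest and 10 lowest, and 14 settings that can change a gene's ratio by itself, 514 of 600 values stayed within their counting error, 86 moved and 0 changed direction. Filters on low values and scaling factors are left out of these counts. The counts are a description, since many of the genes were picked as extremes in these same cells and some settings changed few cells. Requiring a Cd3 UMI, for instance, left 393 Control members. Many of the moves came with the Tnfrsf9 limit. The mean log2 ratio of Lyn was 1.34 at 1 or more UMIs and 1.85 at 3 or more, beside 1.55. That of Stat3 was 0.92 and 1.22, beside 1.07. Without the 1 cell that held most of a gene's UMIs, a step chosen after seeing the data, the mean log2 ratio was 2.15 for Areg, 1.51 for Tnfrsf4, 1.33 for Mt2 and 1.01 for Mt1. Matching on class gave -0.92 for Cd8b1, beside -2.45, a move built into the setting because Cd8b1 UMIs define the classes.

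With at least 2000 UMIs per barcode, members were 9.12% of Control and 8.0% of SAP barcodes. With Tnfrsf9 at least 1, they were 19.0% and 15.5%; 107 genes were higher and 49 lower than in comparators, and 93 higher and 30 lower in SAP than in Control members. With Tnfrsf9 at least 3, the shares were 3.52% and 3.14%, 257 genes were higher and 193 lower, and 411 and 320 differed between libraries. Unmatched comparators gave 173 higher and 167 lower genes. Without the CPM filter the balance turned over, with 259 genes higher and 364 lower, and 486 and 323 differed between libraries. At 100 CPM 76 genes were higher, 23 lower and 30 listed genes apart, beside 53 at 20 CPM. Median-of-ratios factors gave 214 genes lower in SAP. Thinning to 2000 UMIs gave 16.4% and 13.0%. The causes were not tested, except that a filter changes the number of genes compared. Removing doublets by rank took 24 (6.09%) Control and 9 (3.01%) SAP members and left 180 genes higher and 117 lower, of which 158 and 91 were shared.

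No paired analysis was possible because each label has 1 library. That single library per label, and few UMIs per gene and cell, limit every value here.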

Other observations

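Other genes at least 2-fold apart in both libraries were picked here after their values were seen, and carry no test. Itgav, the integrin alpha-V chain, was at 163 CPM in Control members and 71.5 in comparators, and at 164 and 70.3 in SAP (ratios 2.27 and 2.34). Tgfb3, a transforming growth factor beta, was at 31.2 against 12.2 CPM in Control and 37.4 against 16.4 in SAP (2.55 and 2.28). Cd200r4, like Cd200r2 of the CD200 receptor family, had ratios of 2.39 and 2.04. Map3k1, a kinase upstream of JNK, was at 274 against 126 CPM and 253 against 120 (2.18 and 2.12). Dgat1, which makes triglycerides, was at 496 against 240 CPM and 427 against 209 (2.07 and 2.05). On the lower side, Lat, the adaptor that links the antigen receptor to its signals, was at 89.8 against 201 CPM in Control and 97.8 against 202 in SAP (0.447 and 0.484).

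Cells with at least 2 Tnfrsf9 UMIs and a Cd4 UMI, which the rule leaves out, numbered 15 in Control and 8 in SAP, with medians of 4783 and 5461 UMIs.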
